A study of Mus musculus with 3 samples.

Results

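The 26 genes described here encode enzymes that build cholesterol and the proteins that sense, move or store it. They were taken by name, from the thiolase Acat2 at the entry of the pathway to the esterifying enzyme Soat1, and all 26 were found among the 27179 genes of the deposited table. Their expression was measured by messenger RNA sequencing in 3 cultures of mouse bone marrow stromal cells, labelled wild type and kept at 3% oxygen in medium with fetal bovine serum. Each culture was given, for 3 days, extracellular vesicles, membrane-bound particles shed by cells, from bone marrow plasma. The Ocn-EV culture received vesicles of mice carrying the CAGS-Snorkel transgene together with Ocn-Cre, a Cre driver of mature osteoblasts. The Prx1-EV culture received vesicles of CAGS-Snorkel mice with Prx1-Cre, a driver of limb mesenchyme and its descendants. The All-EV culture received vesicles of wild-type mice, as the control. All donors were C57BL/6N mice aged 6 months, and plasma of 5 mice (2 males and 3 females) was pooled for each vesicle preparation. The vesicles of all groups were captured with an HA antibody on magnetic beads, and the sources used here do not explain how vesicles without the transgene were retained. Each group was 1 library (n = 1), so the spread between replicates is unknown for every difference below and conditions were not tested.

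Cholesterol is made from acetyl-CoA through mevalonate, which is built into short isoprenoid chains, joined to squalene, closed into the ring of lanosterol and trimmed to cholesterol in a series of reductions and demethylations. When membranes of the endoplasmic reticulum run low in sterol, Scap carries the transcription factor SREBP-2 (gene Srebf2) to the Golgi, where it is cut and released to switch on most genes of the pathway. When sterol is plentiful, the Insig proteins hold Scap back, so these genes often rise and fall as a block. Macrophages, which take up cell debris and lipoproteins, esterify surplus cholesterol with Soat1 and export it through genes controlled by the LXR receptors.

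SREBP-2 acts on promoters through sterol response elements, usually beside sites for the factors NF-Y and Sp1, so the sequences upstream of the genes are shown first. RefSeq promoters of build GRCm38.p6 matched 22 of the 26 genes. No entry was found for Fdps, Fdft1, Sqle and Stard4. In the 250 bases before each start, both strands were searched for TCACNCCAC (sterol response element letters), CCAAT (NF-Y) and GGGCGG (Sp1). No match of one motif overlapped a match of another among the 77 found in these windows. The sterol response element letters were found in 1 of the 22 genes, Hmgcs1, against 1.22% of all 27025 genes with a promoter and 1.24% of the 8735 protein-coding genes that passed the expression filter given below. The NF-Y letters were found in 20 of the 22 (90.9%), against 37.5% of all genes and 40.3% of the filtered coding genes. The Sp1 letters were found in 19 (86.4%), against 35.4% and 65.6%. A match is a description of letters, and its absence from this window says nothing about binding.

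The Hmgcs1 window (chr13:119690174-119690273, plus strand, 177 to 78 bases before the start) is printed because it alone held the sterol response element letters. The others are the 80 bases directly before the start, all on the minus strand: Tm7sf2 (chr19:6067851-6067930) and Hsd17b7 (chr1:169969206-169969285), which were higher than in All-EV in both the Ocn-EV and the Prx1-EV culture, and Mvd (chr8:122443423-122443502), Sc5d (chr9:42264301-42264380) and Soat1 (chr1:156474329-156474408), which were lower in both as deposited. The promoter entry of Hsd17b7 starts inside the annotated gene (chr1:169949535-169969242). Part of its window, with the ATTGG nearer the start, therefore lies within the gene. Capitals mark the sterol response element letters and CCAAT or its complement ATTGG.
Hmgcs1: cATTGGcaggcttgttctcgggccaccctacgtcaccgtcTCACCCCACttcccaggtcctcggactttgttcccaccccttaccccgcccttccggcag
Tm7sf2: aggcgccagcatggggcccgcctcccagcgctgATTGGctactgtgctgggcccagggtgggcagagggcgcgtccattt
Hsd17b7: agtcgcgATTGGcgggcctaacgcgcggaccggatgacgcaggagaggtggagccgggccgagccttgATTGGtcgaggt
Mvd: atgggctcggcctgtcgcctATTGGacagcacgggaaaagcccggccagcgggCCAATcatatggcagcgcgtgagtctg
Sc5d: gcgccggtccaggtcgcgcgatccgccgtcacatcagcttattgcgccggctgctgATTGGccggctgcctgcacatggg
Soat1: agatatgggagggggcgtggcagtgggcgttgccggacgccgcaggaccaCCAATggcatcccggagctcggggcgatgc
These windows are examples. Acat2 and Scap were the members with a promoter entry but without the NF-Y letters, and Scap was also lower in both cultures as deposited.

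The libraries held 14233978 to 17269204 gene-assigned reads. Levels below are the deposited normalised counts, and the log2 ratios were computed with 1 added to both values. Bracketed ranges are 95% exact binomial intervals of the ratio that cover counting error only. The 11067 genes whose mean over the libraries reached 50 were compared. All 26 members passed that filter, with mean levels from 58.2 to 7860.5. The cultures carried macrophage RNA beside stromal RNA. All 14 genes of a macrophage marker list had reads in every library, with a summed level of 131854 to 239118. The 12 stromal markers summed to 14708.5 with All-EV, 78547 with Ocn-EV and 52382 with Prx1-EV. The collagen genes Col1a1 (7861, 44981 and 30400 in the same order) and Col1a2 (4596, 25448 and 16630) made up most of each sum. The 8 stromal markers that passed the filter were all higher than with All-EV by counting error, where 32.0% (Ocn-EV) and 33.0% (Prx1-EV) of all genes were. Below the filter, Dcn went the other way on 23, 3 and 3 reads, and Lum was at 0 in all libraries. Of 8 adipocyte markers, Adipoq and Lep were at 0 throughout. The list summed to 13836 with All-EV, 15166 with Ocn-EV and 18235 with Prx1-EV. Lpl made up most of each sum, at 8790, 9354 and 11799 in the same order, and Cebpa, Fabp4 and Pparg also passed the filter. Of 11 lymphoid, neutrophil, erythroid and endothelial markers, Cd3e and Elane were at 0 throughout, and the list summed to 719 to 947. The endothelial gene Kdr made up most of each sum (399, 624 and 661 with All-EV, Ocn-EV and Prx1-EV). Kdr (log2 0.64 and 0.73) and Cdh5 (0.65 and 0.78) were higher with Ocn-EV and Prx1-EV. Pecam1 was inside counting error in both, and S100a8, S100a9 and Hbb-bs, below the filter, were lower on few reads. In such bulk cultures, fewer cells of a type and less RNA per cell cannot be told apart.

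The genes did not move as a block. Between Ocn-EV and All-EV, 14 of the 26 were above and 12 below a log2 ratio of 0, where 48.7% of all genes compared were above. The members' median was 0.11 against −0.02 over all genes compared. Between Prx1-EV and All-EV, 10 were above and 16 below, where 50.0% of all genes were above. The median was −0.12 against 0.00. At 1.5-fold, the threshold used for single genes, 3 of 26 were higher with Ocn-EV and 3 lower, where 13.8% of all genes were higher and 13.6% lower. With Prx1-EV, 1 of 26 was higher and 2 were lower, where the background was 12.7% in each direction. The median size of the log2 ratio, whatever its sign, was 0.32 with Ocn-EV against 0.34 over all genes, and 0.36 with Prx1-EV against 0.32. The shares past 1.5-fold were thus near or below the background. With libraries scaled to equal totals, the median of all genes became 0.24 with Ocn-EV and 0.22 with Prx1-EV, and the members' medians became 0.36 and 0.11, the latter now above 0. Relative to all genes they were 0.12 higher and 0.12 lower, as before scaling. The direction with Ocn-EV depended on the less abundant members: among the 16 members with a mean level of at least 200 its median was −0.14, or −0.10 relative to the genes that passed the same filter. With equal totals, 7 members were higher and 1 lower by 1.5-fold with Ocn-EV, and 6 higher and 1 lower with Prx1-EV, where 24.7% and 22.9% of all genes were higher and 6.65% and 6.51% lower.

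**Figure D1:**
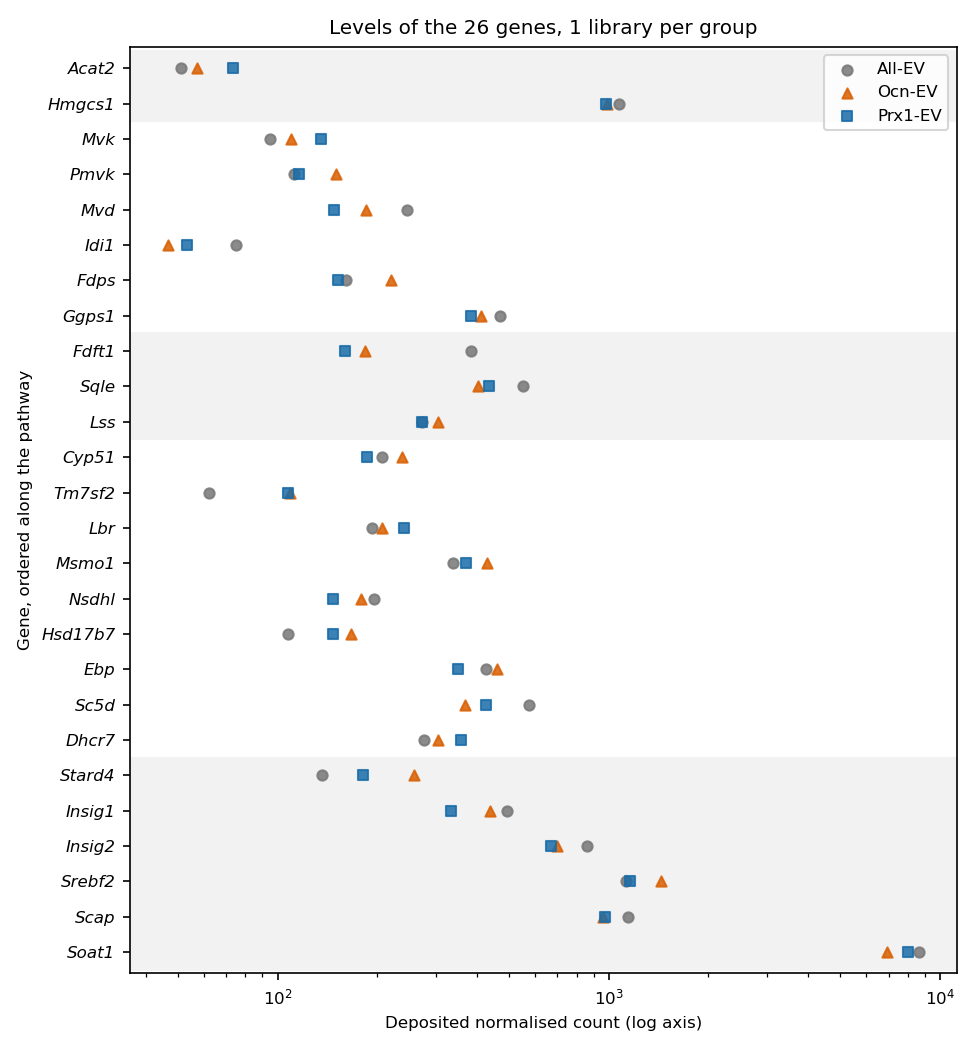
Deposited normalised counts (log axis) of the 26 genes in the All-EV, Ocn-EV and Prx1-EV libraries, ordered along the pathway with shading by step, 1 point per library. In 19 of the 26 genes the highest library is less than 1.5 times the lowest, and Fdft1 has the widest spread, from 159.6 to 385.

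The range between libraries was narrow for most members. The highest library exceeded the lowest by less than 1.5-fold in 19 of 26 members (73.1%), against 66.8% of all genes compared. The highest value lay in All-EV for 12 members, in Ocn-EV for 10 and in Prx1-EV for 4. The same split over all genes was not computed, so these counts are not read as particular to the members.

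The first enzymes join acetyl units. Acat2, the cytosolic thiolase that makes acetoacetyl-CoA, stood at 50.9 with All-EV, 56.9 with Ocn-EV and 73.3 with Prx1-EV, and with 45 to 84 reads the counting intervals of both ratios to All-EV included 0 (0.16, −0.43 to 0.76, and 0.52, −0.01 to 1.08). Hmgcs1, the synthase that adds the third acetyl unit and carries the sterol response element letters printed above, stood at 1074, 989 and 984 in the same order. This range of 1.09-fold was the narrowest of the 26 genes, with log2 ratios of −0.12 (−0.25 to 0.01) for Ocn-EV and −0.13 (−0.25 to −0.00) for Prx1-EV, and with equal totals the ratios of Hmgcs1 turned to 0.14 and 0.10.

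The enzymes from mevalonate to the prenyl diphosphates went in different directions. Mvk, the first mevalonate kinase step, stood at 95.1 with All-EV, 109.8 with Ocn-EV and 135 with Prx1-EV, and only the Prx1-EV ratio excluded 0 (0.50, 0.12 to 0.91). Pmvk, the kinase that follows, stood at 112, 150.1 and 116, with a ratio of 0.42 (0.04 to 0.81) for Ocn-EV and 0.05 (−0.34 to 0.44) for Prx1-EV. The pair of kinases were thus highest in different libraries. The Mvk difference between Ocn-EV and Prx1-EV was, however, inside counting error (−0.30, −0.67 to 0.06). Mvd, the decarboxylase that yields isopentenyl diphosphate, was highest in All-EV at 247, with 185 in Ocn-EV and 148 in Prx1-EV. Its level was 1.66-fold lower with Prx1-EV (−0.73, −1.03 to −0.44) and 1.33-fold lower with Ocn-EV (−0.41, −0.71 to −0.12). With equal totals the Prx1-EV ratio of Mvd was −0.51, short of 1.5-fold.

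Idi1, the isomerase that makes the reactive isoprene unit, was the least abundant member per length, at 74.7 with All-EV, 46.6 with Ocn-EV and 53.2 with Prx1-EV. Its level was 1.60-fold lower with Ocn-EV (−0.67, −1.26 to −0.11) on 45 against 66 reads, and its Prx1-EV ratio of −0.48 (−1.02 to 0.04) included 0. The Ocn-EV ratio fell short of 1.5-fold with a pseudocount of 10 (−0.58), with equal totals (−0.42) and after correction for transcript length and GC content (−0.49). Fdps, which makes farnesyl diphosphate, went the other way, at 161 with All-EV, 221 with Ocn-EV and 153 with Prx1-EV (0.45, 0.14 to 0.77 for Ocn-EV). In the GENCODE vM21 annotation Fdps shares 1124 of 4208 exon bases (26.7%) with Gm43738 on the same strand. No value was found for Gm43738, and its part in the Fdps values was not tested. Ggps1, which extends farnesyl to geranylgeranyl diphosphate for protein prenylation and so leads away from sterols, stood at 471, 412 and 384, with ratios of −0.19 (−0.39 to 0.01) and −0.29 (−0.49 to −0.10).

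The committed step to sterols held the widest difference. Fdft1, squalene synthase (gene ID 14137, chr14:63145150-63181687 in GRCm38.p6), stood at 385 with All-EV, 183 with Ocn-EV and 159.6 with Prx1-EV. Its level was 2.10-fold lower with Ocn-EV (−1.07, −1.34 to −0.80) and 2.41-fold lower with Prx1-EV (−1.26, −1.54 to −1.01), the only member past 2-fold in either comparison. Of all genes, 4.20% were at least 2-fold lower with Ocn-EV and 3.66% with Prx1-EV. In the GENCODE vM21 annotation, 774 of the 4227 exon bases of Fdft1 (18.3%) overlap exons of Ctsb on the opposite strand. Ctsb, the lysosomal protease cathepsin B, stood at 270657 with All-EV, 224751 with Ocn-EV and 237988 with Prx1-EV, 703 to 1491 times the level of Fdft1. The strand setting of the read counting is not stated in these sources, so reads of the overlap cannot be assigned. The Ctsb log2 ratios of −0.27 (−0.28 to −0.26) and −0.19 (−0.19 to −0.18) had the same sign as those of Fdft1 and were smaller. The part of Ctsb reads in the Fdft1 values was not tested.

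After squalene synthase the differences were smaller. Sqle, squalene epoxidase, stood at 552 with All-EV, 402 with Ocn-EV and 434 with Prx1-EV, and both the Ocn-EV and the Prx1-EV culture lay below All-EV beyond counting error (−0.46, −0.66 to −0.26, and −0.35, −0.53 to −0.17). Lss, which closes the ring to lanosterol, stood at 274, 305 and 272, and no difference was detectable at this depth (0.16, −0.09 to 0.41, and −0.01, −0.26 to 0.24). Summed over Fdft1, Sqle and Lss, levels were 1211 with All-EV, 890.5 with Ocn-EV and 865 with Prx1-EV, with Fdft1 contributing most of the gap.

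The enzymes that turn lanosterol into cholesterol were near balance on the deposited scale. Their summed levels were 2381 with All-EV, 2461 with Ocn-EV and 2336 with Prx1-EV. The log2 ratios of these sums, 0.05 (−0.04 to 0.13) and −0.03 (−0.11 to 0.06), had counting intervals that included 0. These sums were not recomputed with equal totals, where the ratios of single genes to All-EV were higher. Cyp51, the demethylase that starts the series, stood at 206, 237 and 187, with both ratios to All-EV inside counting error (0.20, −0.08 to 0.49, and −0.14, −0.43 to 0.15).

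The sterol C14 reductase step can be carried out by either of a pair of proteins, Tm7sf2 and the lamin B receptor Lbr. Tm7sf2 stood at 62.2 with All-EV, 109 with Ocn-EV and 107 with Prx1-EV. Both the Ocn-EV and the Prx1-EV culture were higher, 1.75-fold with Ocn-EV (0.79, 0.32 to 1.30) and 1.72-fold with Prx1-EV (0.78, 0.32 to 1.27). Lbr, which also anchors heterochromatin at the nuclear envelope, stood at 192, 207 and 241, and only its Prx1-EV ratio excluded 0 (0.32, 0.04 to 0.61). Per kilobase of the longest transcript, Lbr stood at 54.8, 59.0 and 68.6 and Tm7sf2 at 20.2, 35.3 and 34.8, so Lbr was the more abundant in each library. Tm7sf2 shares 532 of 4403 exon bases (12.1%) with Vps51 on the same strand, and Vps51 stood at 730 with All-EV, 627 with Ocn-EV and 659.5 with Prx1-EV, with ratios of −0.22 (−0.38 to −0.06) and −0.15 (−0.30 to 0.01), the latter inside counting error. The part of Vps51 reads in the Tm7sf2 values was not tested.

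Msmo1 and Nsdhl take part in removing the methyl groups at the sterol C4 position. Msmo1 stood at 338 with All-EV, 429.7 with Ocn-EV and 372 with Prx1-EV (0.34, 0.13 to 0.56 for Ocn-EV and 0.13, −0.08 to 0.35 for Prx1-EV). Nsdhl stood at 196, 179 and 147 (−0.13, −0.44 to 0.18, and −0.41, −0.72 to −0.09). The enzyme that completes that step, Hsd17b7, stood at 108, 167 and 147, 1.55-fold higher with Ocn-EV (0.63, 0.26 to 1.01) and 1.36-fold higher with Prx1-EV (0.44, 0.08 to 0.83). The C4 genes therefore did not share a direction.

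Ebp, the sterol isomerase, stood at 427 with All-EV, 459.7 with Ocn-EV and 352 with Prx1-EV, and only the lower Prx1-EV value left counting error (−0.28, −0.49 to −0.07). Sc5d, the desaturase that follows it, was highest in All-EV at 576, against 368 with Ocn-EV and 427 with Prx1-EV. The level was 1.57-fold lower with Ocn-EV (−0.65, −0.85 to −0.45) and 1.35-fold lower with Prx1-EV (−0.43, −0.62 to −0.25). With equal totals its Ocn-EV ratio was −0.39, short of 1.5-fold. Dhcr7, the reductase that makes cholesterol from 7-dehydrocholesterol, stood at 276, 305 and 358, with a ratio of 0.15 (−0.10 to 0.40) for Ocn-EV and 0.37 (0.14 to 0.61) for Prx1-EV.

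**Figure D2:**
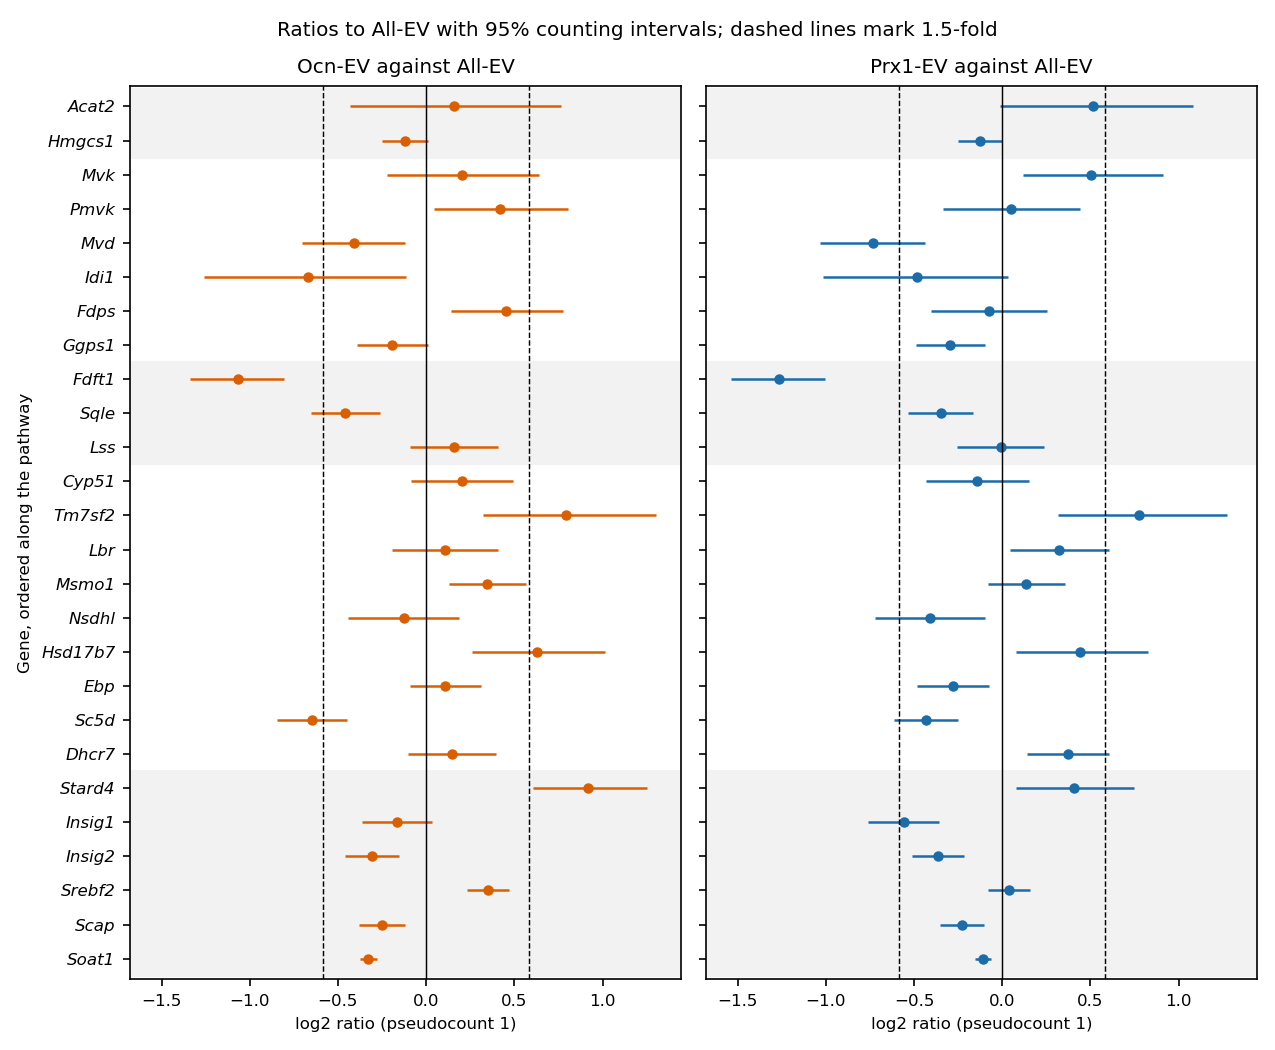
log2 ratios of the 26 genes to All-EV for Ocn-EV (left) and Prx1-EV (right), with lines for 95% counting intervals and dashed lines at 1.5-fold. Points lie on both sides of 0 in both panels, but with Prx1-EV every gene from Mvd to Cyp51 lies below 0. In that run the intervals of Idi1, Fdps, Lss and Cyp51 include 0. Fdft1 is lowest in both panels at −1.07 and −1.26.

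Among the sensors and handlers of sterol, Stard4 gave the highest ratio. Stard4, a soluble protein that carries cholesterol between membranes and is itself a known SREBP-2 target, stood at 136 with All-EV, 258 with Ocn-EV and 181 with Prx1-EV. It was 1.90-fold higher with Ocn-EV (0.92, 0.60 to 1.25) and 1.33-fold higher with Prx1-EV (0.41, 0.08 to 0.75). The transcription factor gene Srebf2 stood at 1125, 1434 and 1155, higher with Ocn-EV (0.35, 0.23 to 0.47) and level with Prx1-EV within counting error (0.04, −0.08 to 0.16). After correction for length and GC content, the Srebf2 ratios were −0.05 and −0.28. Its escort Scap stood at 1142, 959 and 975, lower in both the Ocn-EV and the Prx1-EV culture (−0.25, −0.38 to −0.12, and −0.23, −0.35 to −0.10), and its Ocn-EV ratio was −0.61 after the same correction and 0.00 with equal totals, where the Prx1-EV ratio was −0.00.

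The Insig genes encode the retention proteins of Scap, and Insig1 is also a target of SREBP-2. Insig1 stood at 491 with All-EV, 438 with Ocn-EV and 333 with Prx1-EV, with a ratio of −0.16 (−0.36 to 0.03) for Ocn-EV and −0.56 (−0.76 to −0.36) for Prx1-EV. Insig2 stood at 860.1, 696 and 668, lower in both (−0.31, −0.46 to −0.15, and −0.36, −0.51 to −0.22). Per kilobase, Insig2 stood at 319, 258 and 248 and Insig1 at 182, 162 and 124, so Insig2 was the more abundant in every library.

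Soat1, the enzyme that esterifies cholesterol for storage in droplets, was by far the most abundant member, at 8658.5 with All-EV, 6898 with Ocn-EV and 8025 with Prx1-EV. Its mean of 939 per kilobase lay above 91.8% of all genes compared, whereas 19 of the 26 members lay below the median of those genes. With 6662 to 9199 reads its differences left counting error although they were small, at −0.33 (−0.38 to −0.28) for Ocn-EV and −0.11 (−0.15 to −0.07) for Prx1-EV. With equal totals the Prx1-EV ratio of Soat1 turned to 0.12. The macrophage genes Lyz2 and Itgam were lower too (log2 −1.44 and −1.42 with Ocn-EV, −1.79 and −1.60 with Prx1-EV), while Mertk was higher (1.34 in both). Over the 14 macrophage markers, with Ocn-EV 7 were higher and 3 lower by 1.5-fold or more, where 13.8% and 13.6% of all genes were. With Prx1-EV 5 were higher and 4 lower, where 12.7% of all genes were in each direction. The part of macrophage cells in the Soat1 values was not tested.

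Ordered by mean level per kilobase, Soat1 (939) was followed by Hmgcs1 (293), Insig2 (275), Srebf2 (244), Scap (243) and Ebp (237), and the order ended with Tm7sf2 (30.1), Acat2 (26.8) and Idi1 (19.2). Of the 25 neighbouring pairs in this order, only Soat1 over Hmgcs1 and Ebp over Insig1 (156) were apart in the same direction beyond counting error in all 3 libraries. The others were inside counting error, or reversed, in at least 1 library.

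By counting error alone, 7 of 26 members were higher with Ocn-EV than with All-EV and 8 lower, where 32.0% and 35.0% of all genes were. With Prx1-EV 6 were higher and 12 lower, where 33.0% and 33.7% were. Tm7sf2, Hsd17b7 and Stard4 were higher in both comparisons. Mvd, Fdft1, Sqle, Sc5d, Insig2, Scap and Soat1 were lower in both as deposited. With equal totals Scap with Ocn-EV and Soat1 with Prx1-EV were no longer below 0, and other ratios shrank. With Ocn-EV and Prx1-EV, Mvd then stood at −0.16 and −0.51, Sqle at −0.20 and −0.12, and Insig2 at −0.05 and −0.14. Sc5d stood at −0.39 and −0.21 and Fdft1 at −0.81 and −1.04. Counting intervals were not recomputed at equal totals, so the list of genes lower in both holds for the deposited scale only. As deposited, no member was higher in one and lower in the other beyond counting error. The comparisons share the All-EV library, so these counts are not independent. Over all genes, the shares alike or opposite in both comparisons were not computed, so this overlap is not read as particular to the members. For Acat2, Lss and Cyp51 both intervals included 0.

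The Ocn-EV and Prx1-EV cultures were then compared with each other. None of the 26 members differed by 1.5-fold between Ocn-EV and Prx1-EV, where 2.24% of all genes were higher and 1.30% lower with Ocn-EV. By counting error, 9 were higher with Ocn-EV and 3 lower, where 15.8% and 20.3% of all genes were. The members' median log2 ratio was 0.13 against −0.01 over all genes, and 17 of 26 lay above 0, where 47.0% of all genes did. Fdps (0.53, 0.24 to 0.83), Stard4 (0.51, 0.24 to 0.79), Insig1 (0.39, 0.19 to 0.60), Ebp (0.39, 0.19 to 0.59) and Srebf2 (0.31, 0.20 to 0.42) were higher with Ocn-EV, together with Pmvk, Cyp51, Mvd and Msmo1 at 0.37, 0.34, 0.32 and 0.21. Sc5d (−0.21, −0.42 to −0.01), Dhcr7 (−0.23, −0.45 to −0.01) and Soat1 (−0.22, −0.26 to −0.17) were lower with Ocn-EV. Members' sums without Soat1 were 9631 with All-EV, 9306 with Ocn-EV and 8561 with Prx1-EV on the deposited scale. As a share of gene-assigned reads All-EV was instead lowest, at 0.0547%, against 0.0631% with Ocn-EV and 0.0568% with Prx1-EV. In the same comparison, 3 of 10 tested proliferation markers were higher by 1.5-fold or more with Ocn-EV and none was lower. Their median was 0.40 (Mcm5 at 0.82 and Ccnb1 at 0.75). By counting error 7 of these 10 were higher and 1 lower. The lower one was Pcna, at 5213 with Ocn-EV and 6263 with Prx1-EV (−0.26, −0.32 to −0.21). Of 8 tested stromal markers 2 were higher by that amount, with a median of 0.49. Of the 14 macrophage markers, 2 were higher by 1.5-fold with Ocn-EV (C1qa at 0.70 and Cd14 at 0.60) and 0 lower, and by counting error 10 were higher and 2 lower, with a median of 0.27. The part of proliferating, stromal or macrophage cells in the members' values was not tested.

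**Figure D3:**
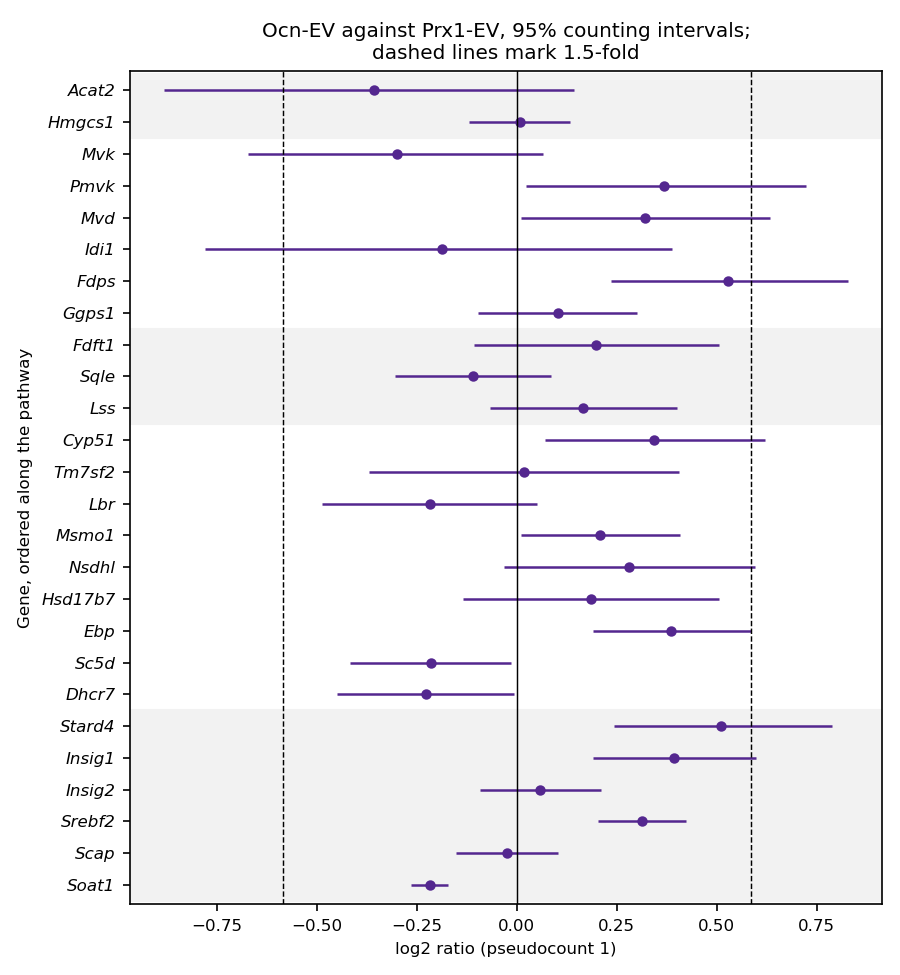
log2 ratios of the 26 genes for Ocn-EV against Prx1-EV, with 95% counting intervals and dashed lines at 1.5-fold. Every point lies inside the dashed lines, and 17 of 26 lie above 0, against 47.0% of all genes compared.

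Further lipid genes were described from lists chosen by function. Their counts past 1.5-fold are read against the shares of all genes compared. These were 13.8% higher and 13.6% lower with Ocn-EV, and 12.7% in each direction with Prx1-EV. Of 6 other late sterol and electron donor genes, 0 were higher and 2 lower by 1.5-fold with Ocn-EV (median −0.18), and 0 were higher and 3 lower with Prx1-EV (median −0.43). Pgrmc1, a heme protein that binds sterol-demethylating enzymes, was lower in both (−0.83 and −0.78), as was the electron carrier Cyb5a (−0.71 and −0.70). Erg28, a scaffold of the C4 demethylating enzymes, stood at 276 with All-EV, 209 with Ocn-EV and 174 with Prx1-EV (−0.40, −0.68 to −0.13, and −0.66, −0.94 to −0.39).

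Of 13 tested sterol sensing and SREBP regulators, 0 were higher and 2 lower with Ocn-EV (median −0.02), and 1 was higher and 1 lower with Prx1-EV (median 0.06). Tmem97, a sterol-binding membrane protein, stood at 612 with All-EV, 336.5 with Ocn-EV and 380.4 with Prx1-EV, log2 −0.86 (−1.07 to −0.66) and −0.69 (−0.87 to −0.50). Rnf139, a ubiquitin ligase of the endoplasmic reticulum, had ratios of −0.63 and −0.40. Nfya, the NF-Y subunit whose complex reads the CCAAT letters shown above, had ratios of 0.52 (0.42 to 0.61) and 0.60 (0.51 to 0.69). The other subunit genes of the list were inside counting error in both comparisons, Nfyb at −0.10 and 0.15 and Nfyc at 0.06 and −0.02.

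Of 12 tested genes of sterol uptake and transport, 0 were higher and 1 lower with Ocn-EV (median −0.13), and none passed 1.5-fold with Prx1-EV (median −0.24). The lower one was Npc1, which releases cholesterol from lysosomes, at 17081 with All-EV, 11066 with Ocn-EV and 12358 with Prx1-EV (−0.63 and −0.47). Its partner Npc2 had ratios of −0.54 in both, and the sterol transporter Gramd1b −0.51 and −0.34. These named genes were all lower, but the list was mixed. By counting error 4 of the 12 were higher and 5 lower with Ocn-EV, where 32.0% and 35.0% of all genes were. With Prx1-EV 5 were higher and 7 lower, where 33.0% and 33.7% were. The summed level of the list was 146282 with All-EV, 158565 with Ocn-EV and 161175 with Prx1-EV. Of 11 tested isoprenoid branch and prenylation genes, 1 was higher and 1 lower with Ocn-EV (median 0.04) and 0 higher and 1 lower with Prx1-EV (median 0.15). Rabggtb, a subunit of the Rab prenylating enzyme, was the lower one at −1.03 and −0.94, the farnesyltransferase subunit Fntb had 0.70 and 0.48, and Nus1, needed for dolichol synthesis, −0.39 and −0.34.

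In the remaining lipid lists the counts are read against the same shares, 13.8% (Ocn-EV) and 12.7% (Prx1-EV) of all genes higher by 1.5-fold. With equal totals these were 24.7% and 22.9%. The shares lower were 13.6% and 12.7%, or 6.65% and 6.51% with equal totals. Of 15 tested fatty acid synthesis and desaturation genes, 4 were higher and 0 lower with Ocn-EV (26.7% higher, median 0.26), and 4 were higher and 1 lower with Prx1-EV (median 0.21). Scd1, a stearoyl-CoA desaturase, stood at 46.4 with All-EV, 161 with Ocn-EV and 163 with Prx1-EV, log2 1.77 (1.29 to 2.32) and 1.79 (1.32 to 2.34). The desaturase Fads2 had ratios of 1.63 and 1.07 and the phosphatidate phosphatase Lpin1 0.80 and 0.68. Of 8 tested LXR and oxysterol genes, 4 were higher (50%) and 0 lower in each comparison (medians 0.66 and 0.63). Cyp27a1, which makes 27-hydroxycholesterol, stood at 30.6, 122 and 109.9, log2 1.96 (1.39 to 2.66) and 1.81 (1.24 to 2.50), with Ch25h at 1.16 and 0.89 and Mylip at 0.80 and 0.94. No difference between lists was tested.

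**Figure D4:**
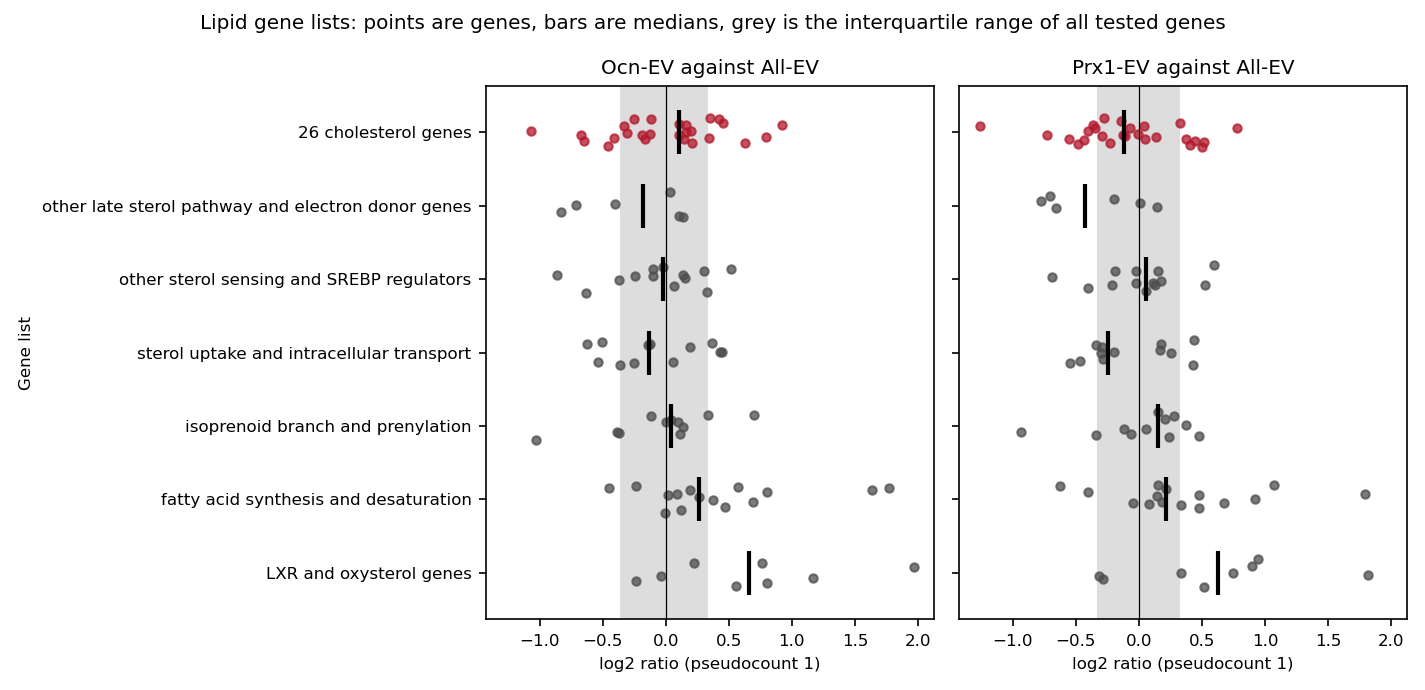
log2 ratios to All-EV of tested genes in the 26-gene set (red) and in 6 other lipid gene lists (grey), with bars at the medians and shading over the interquartile range of all 11067 genes. The 26 genes centre near 0 (medians 0.11 and −0.12), and the LXR and oxysterol list centres at 0.66 and 0.63.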

How the data were processed

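RNA of 3 cultures was sequenced, 1 library per group, and groups were taken from the sample labels. The deposited signal values are counts that the authors divided by 1 size factor per library. Per the submitters' processing notes, the tools were Trimmomatic 0.38.1 and FastQC 0.74 as well as HISAT2 2.2.1, featureCounts 2.0.3 and DESeq2 2.11.40.8, and the build was mm10, with no order or settings given. All values (100%) were whole multiples of the value of 1 read within 1e-06 of a read, so reads were recovered by division. Symbols came from RefSeq GRCm38.p6 and matched 25275 of 27179 identifiers. GENCODE vM21 supplied transcript lengths and GC content (97.57% of the 11067 genes compared, all 26 members).

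Ratios, exact Clopper-Pearson intervals and counts past 1.5-fold and 2-fold were computed with Python 3.11.15 and scipy 1.17.1, without a test of conditions. The libraries carried no molecular identifiers, so reads may repeat a molecule and the intervals hold counting error alone. An exact binomial test on recovered reads, which sets 1 library against another rather than conditions, called 7134, 7092 and 2840 genes (Ocn-EV and Prx1-EV against All-EV, Ocn-EV against Prx1-EV) at a Benjamini-Hochberg adjusted p under 0.05. The calculations were tested on simulated data. Alternatives were other pseudocounts and filters, equal totals, edgeR 4.0.16 TMM factors, and removal of a cubic trend on length and GC content. The named genes were all members, and in each other lipid list the 3 tested genes farthest from 0 in Ocn-EV against All-EV. Marker genes, Ctsb, Vps51 and Gm43738 as overlapping neighbours, and Nfyb and Nfyc beside Nfya, were named beside results. Of the late sterol list, 1 gene is not reported here. The members and lists were chosen with earlier results of these data known.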

Additional observations from a re-analysis of the deposited data

How the results depend on the processing

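The medians of the 26 members and their counts past 1.5-fold kept within 1.5 times, or within counting error, with pseudocounts of 0.1 and 10, no filter and TMM factors. With libraries at equal totals, the medians against All-EV were 0.36 (Ocn-EV) and 0.11 (Prx1-EV), with 7 and 6 members higher and 1 and 1 lower. With a filter of 200, which left 16 members, 0 were higher in both comparisons, and 1 was lower with Prx1-EV. That filter turned the Ocn-EV median from 0.11 to −0.14, and the members’ distance from the median of all genes from 0.12 to −0.10, while with Prx1-EV the median was −0.18. Correcting for length and GC content gave 2 members higher with Prx1-EV. Chosen after seeing the data, the 16 members without an exon overlap gave 1 lower with Ocn-EV, and 0 higher and 1 lower with Prx1-EV. The count test on reads, also added later, has no fold threshold and called 7 higher and 8 lower with Ocn-EV, 6 and 11 with Prx1-EV, and 5 and 1 between Ocn-EV and Prx1-EV, where 64.5%, 64.1% and 25.7% of all genes were called. Of 516 recomputed single-gene ratios, 30 left their counting interval, 24 with equal totals and 6 with the length and GC trend removed, and 0 ratios past 1.5-fold changed sign. Members with few reads (Idi1, Acat2 and Tm7sf2) have the widest intervals. No paired analysis was possible because each group has 1 library, and for the same reason no replicate could be left out.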
